A study of Mus musculus with 14 samples.

Results

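Whole islets of mice labelled Db were compared with whole islets of control mice, both at 4 weeks of age. The comparison rests on 4 of the 14 libraries of the study, chosen by their titles: Db replicates 1 and 2 and control replicates 1 and 2 (n = 2 per group). The study concerns mTORC1, AMPK and the metabolism of β-cells during maturation and in diabetes. This pair of groups is placed on the diabetic side of that question by the label Db and not by a measured blood glucose. The titles of all 4 libraries carry the prefix BKS, which the labels do not explain, while the strain label of both groups is C57BL/6. The labels give the genotype only as Db or control. The allele, zygosity, sex, body weight and blood glucose of the mice, and the number of mice behind each library, are not given in the sources used here. No label says that replicates came from separate animals, so the spread between these libraries, on which the p-values rest, may be technical. For most genes the p-values draw more on that spread over all genes than on the spread of the single gene.

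Pancreatic islets are clusters of endocrine cells in which insulin-secreting β-cells are the majority in mice, together with glucagon (α), somatostatin (δ) and pancreatic polypeptide cells, vessels and supporting cells. The name db is that of a recessive mouse mutation in Lepr, the gene of the leptin receptor. Homozygous mice overeat, become obese and insulin resistant, and on susceptible backgrounds their β-cells fail. The mutation lies in every tissue and not in the β-cell alone, so islets of such mice also experience a changed metabolic environment. Lepr received 11 and 2 counts in the control libraries and 1 and 4 in the Db libraries, too few to test, and counts per gene would in any case not show a change that alters the receptor's splicing or sequence.

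The labelled tissue was matched by its defining genes: Ins2 and Ins1, which encode the insulins of the mouse, together took 45.5 to 70.0% of the gene counts of each library, and Gcg, Sst and Ppy were present in all 4. The 4 libraries held 9020767 and 10117880 gene counts in the controls and 16897616 and 17688772 in the Db group, so depth and group cannot be told apart. Reads that did not align made up 18.04% and 5.19% of the control libraries and 2.71% and 2.18% of the Db libraries. Levels are given as CPM, counts scaled to a common library total, on totals adjusted by TMM (edgeR’s trimmed mean of M-values), in the order replicate 1, replicate 2. A gene was called when edgeR's quasi-likelihood test gave a Benjamini-Hochberg adjusted p below 0.05, and the direction is always Db relative to control. Fold changes are log2 values, with the standard error after ± where it is given. The test covered 14369 genes and called 48.2% of them, 3488 (24.3%) as higher in Db islets and 3431 (23.9%) as lower. Among the calls, 2023 rose and 2132 fell by at least 2-fold. The groups did not overlap for 74.7% of all genes tested, so a lack of overlap is common in these 4 libraries. Leaving out 1 library at a time, 3566 of the 6919 calls were kept in every round; without Db 2 the genes called lower numbered 1952. Of the calls, 2871 (1787 higher, 1084 lower) were kept in every one of the 17 alternative analyses that tested the gene. Some alternatives tested fewer genes, and a gene left untested there was not counted as lost.

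**Figure D1:**
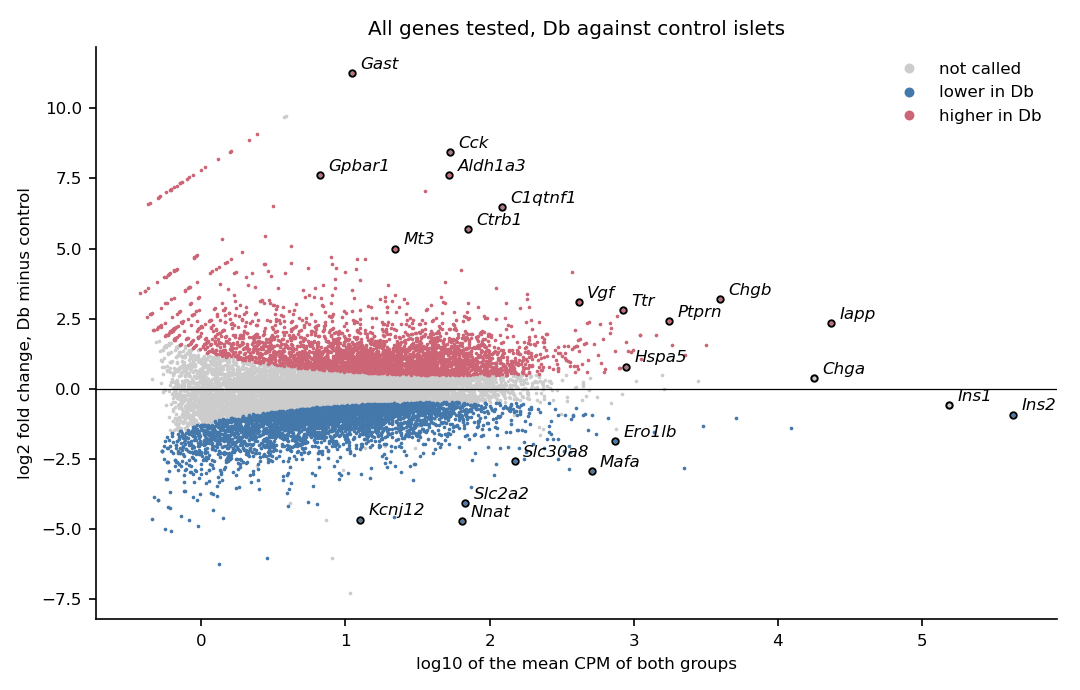
Each dot is 1 of the 14369 genes tested, with the log10 of its mean CPM over both groups on the x axis and its log2 fold change (Db minus control) on the y axis; red dots were called higher, blue dots lower, grey dots not called. Chgb, Iapp and Ttr are labelled among genes of high mean CPM that rose, and Slc2a2, Nnat, Mafa and Slc30a8 among those that fell.

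Both the insulin genes and base composition touch these numbers. Insulin counts fell from 61.0% and 70.0% of the gene counts in controls to 48.3% and 45.5% in Db libraries, so the other genes together hold a larger share of a plain library total in Db islets. As a share of all reads, including those that did not align or fell in no gene, they took 21.4% and 29.3% in controls and 21.1% and 20.2% in Db libraries, so that control 1 and Db 1 were close. With plain library totals and no TMM, 3997 genes were called higher and 1564 lower, and the median of all genes shifted to 0.29 (log2). With Ins1 and Ins2 left out and plain totals of the remaining 3514394, 3032828, 8731820 and 9635098 counts, the split was 2186 higher and 5305 lower, and the median was -0.36. With TMM the median was -0.03 whether the insulin genes were kept or left out, and 6813 of the 6919 calls were kept without them. No call took the opposite direction under any of these scalings. The fold change also followed the GC content of the transcripts (Spearman's rho 0.40, Pearson's r 0.32, across 13855 genes, which are not independent replicates). Sorted into 10 bins by GC content, the lowest bin, 28.1 to 41.9%, had a median of -0.87, with 4.31% called higher and 55.9% lower. In the ninth bin the median was 0.50, with 43.5% higher and 9.0% lower, and in the highest bin it was 0.13, with 28.2% higher and 20.3% lower. Between replicates of 1 group the lowest bin differed by 0.10 (control 2 minus control 1) and -0.29 (Db 2 minus Db 1). When trends with GC content and transcript length were removed from each library, an alternative chosen after the data were seen, 2759 genes (19.9%) were called higher and 2637 (19.0%) lower, 4225 of the earlier calls were kept and 4 took the opposite direction. This alternative is called GC-adjusted below, and its counts are given beside those of the gene lists. Equal counts before and after need not be the same genes. The part of GC content in the results was not tested beyond this.

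**Figure D2:**
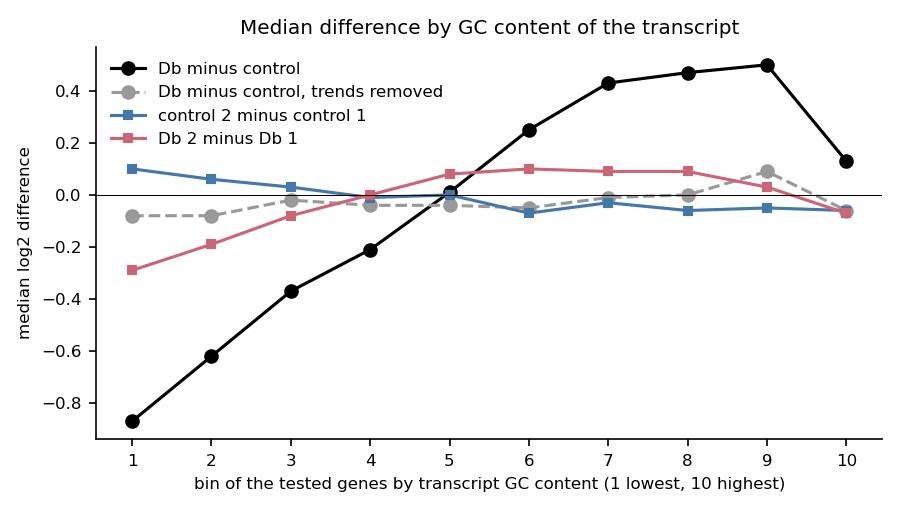
Genes were sorted into 10 bins by transcript GC content (x axis, 1 lowest), and the points give the median log2 difference of each bin (y axis) for Db minus control before and after the trends were removed, and for replicate 2 minus replicate 1 within each group. The Db minus control median climbs from -0.87 in the first bin to 0.50 in the ninth, drops to 0.13 in the tenth and lies near 0 throughout once the trends are removed.

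The islet hormones changed unequally. Ins2 stood at 445700 and 681900 CPM in the control libraries and 325800 and 267800 in the Db libraries, a change of -0.93 ± 0.33 (edgeR adjusted p = 0.0209). The groups did not overlap, but the controls differed from each other by more than the Db libraries did, and the call was lost without control 2 (-0.56, adjusted p = 0.0644), without Db 1 (-1.06, adjusted p = 0.137), without Db 2 (-0.77, adjusted p = 0.314), and with plain library totals (-0.58, adjusted p = 0.233). Ins1 measured 143200 and 226400 CPM in controls and 125100 and 122100 in Db libraries (-0.58 ± 0.31, adjusted p = 0.118) and was not called, although without control 1 it was (-0.84, adjusted p = 0.00638). The ratio of Ins1 to Ins2 counts was 0.321 and 0.332 in controls and 0.384 and 0.456 in Db islets, higher in both Db libraries. The pair is similar in sequence, so reads may have been assigned unequally. Iapp, which encodes amylin, the peptide that β-cells store and release with insulin, moved the other way, from 7075 and 8235 CPM to 42100 and 36000, a 5.1-fold rise (2.35 ± 0.28, adjusted p = 1.11e-07). On CPM computed with the insulin genes left out of the totals, Ins2 stood at 1186000 and 1754000 in controls and 675800 and 574100 in Db islets, values above the total itself in the controls. Iapp stood at 18820 and 21180 in controls and 87320 and 77180 in Db islets. On that scale too the insulin genes were lower and amylin higher in both Db libraries.

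Hormones of the other islet cells were higher or not called. Sst, the δ-cell hormone somatostatin, rose from 890.2 and 972 CPM to 3383 and 2145 (1.57 ± 0.24, edgeR adjusted p = 7.25e-06). Other markers did not follow it: of 5 tested markers of δ, pancreatic polypeptide and epsilon cells, 1 was higher and 2 were lower (1 and 2 GC-adjusted). The 2 lower were Hhex (-1.17) and Rbp4 (-0.92). Gcg, the glucagon gene of α-cells, read 802 and 1794 in controls and 1919 and 1717 in Db libraries, which overlap (0.49, adjusted p = 0.193). Without control 2 it was called higher (1.21, adjusted p = 1.08e-06), as it was GC-adjusted (1.04, adjusted p = 0.0156). Ppy, pancreatic polypeptide, read 1416 and 3633 in controls and 3368 and 2706 in Db (0.27, adjusted p = 0.615), and Pyy, peptide YY, 729.7 and 1148 and 1249 and 1012 (0.27, adjusted p = 0.358). These groups overlapped as well, and of the 17 alternatives only the one without control 2, the control with the higher values of all 3 genes, called Ppy and Pyy higher (adjusted p = 7.77e-06 and 0.00757). Among α-cell markers, 5 of 10 tested were higher and none lower (6 and 1 of 10 GC-adjusted; 3 higher without Db 1), with Ttr, the thyroid hormone carrier transthyretin, at 162 and 259.6 CPM in controls and 1054 and 1891 in Db (2.80 ± 0.30, adjusted p = 8.8e-07). Gc, the vitamin D binding protein, rose by 2.72 ± 0.23 and the amino acid transporter Slc38a5 by 2.78 ± 0.30. The summed level of the 12 α-cell markers was 1074 and 2197 CPM in controls and 3296 and 3885 in Db islets, with no marker at 0 throughout. Gcg, which was not called, and Ttr together made up most of this sum in every library. In whole islets, fewer cells of a type and less RNA per cell cannot be told apart, and this holds for every result here.

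Genes of mature β-cell identity did not move as 1 block. Of 20 β-cell transcription factors tested, 4 were higher and 5 lower (6 and 7 GC-adjusted), shares near those of all genes, with a list median of -0.08 that turned to 0.22 with plain library totals and -0.39 when the insulin genes were left out of them. Without Db 1 or without Db 2, 3 were lower. Mafa, the factor that marks mature β-cells and drives insulin transcription, had the largest fall of the list: 1170 and 638 CPM in controls against 110.3 and 125 in Db islets, 7.69-fold lower (-2.94 ± 0.26, edgeR adjusted p = 3.3e-09). Nkx6-1, a factor that keeps β-cells from taking other endocrine fates, stood at 704 and 653 CPM in controls and 358 and 352 in Db islets (-0.93 ± 0.21, adjusted p = 0.000685). Its call was lost with plain library totals (-0.63, adjusted p = 0.177). Pdx1, the master regulator of pancreas and β-cell genes, was at 218 and 178 CPM in controls and 174 and 167 in Db islets and was not called (-0.21, adjusted p = 0.394). It was called lower GC-adjusted (-0.63, adjusted p = 0.0127) and with the insulin genes left out of plain totals (-0.53, adjusted p = 0.0389). Hnf4a, a nuclear receptor mutated in a monogenic form of diabetes, rose from 5.46 and 5.13 CPM to 16 and 18 (1.68 ± 0.26, adjusted p = 6.4e-06). Both Db libraries lay below both controls for Mafa and Nkx6-1 and above them for Hnf4a. Nkx2-2, chosen after its values were seen, changed by -0.73, a call lost without Db 2 (-0.58, adjusted p = 0.155) and with plain library totals (-0.45, adjusted p = 0.314).

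Most glucose sensing and secretion genes were lower in Db islets: 12 of 21 fell and 4 rose (12 and 3 GC-adjusted), with a median of -0.93 beside -0.03 for all genes. Slc2a2, the GLUT2 glucose transporter of the β-cell membrane, dropped from 111 and 146 CPM to 6.41 and 8.67, 16.9-fold (-4.08 ± 0.24, edgeR adjusted p = 2.76e-13). Without the insulin genes in the totals it read 294 and 374 CPM in controls and 13.3 and 18.6 in Db islets. Nnat, the imprinted gene of neuronatin, which acts in insulin processing at the endoplasmic reticulum, went from 98.5 and 150 CPM to 5.63 and 3.83 (-4.72). Trpm5, a cation channel that aids glucose-stimulated secretion, went from 54.4 and 50.9 to 7.12 and 9.2 CPM (-2.69). For each of these 3 genes the highest Db library lay far below the lowest control. Ucn3, the urocortin peptide that appears as mouse β-cells mature, fell less, from 264 and 226 CPM to 91.4 and 128 (-1.16, adjusted p = 6.82e-05). Ero1lb, the disulfide oxidase of the pancreatic endoplasmic reticulum, fell from 1149 and 1200 to 309 and 326 CPM (-1.89). G6pc2, the glucose-6-phosphatase of islets, fell by less (443 and 724 CPM to 248 and 358, -0.94, adjusted p = 0.00263) and lost its call without Db 1 (-0.69, adjusted p = 0.097), GC-adjusted (-0.42, adjusted p = 0.209) and with plain library totals (-0.57, adjusted p = 0.219). Gipr, Abcc8 and Ffar1, chosen after their values were seen, did not move together. Gipr, the receptor of the gut hormone GIP, fell from 122 and 102 CPM to 30.4 and 34.4 (-1.79), and Abcc8, the sulfonylurea receptor subunit of the ATP-gated potassium channel, rose from 429 and 606 to 1156 and 1435 (1.32, adjusted p = 3.7e-05). Ffar1, the fatty acid receptor GPR40 that amplifies insulin secretion, rose from 17.5 and 19.9 to 36.5 and 52 CPM (1.25).

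**Figure D3:**
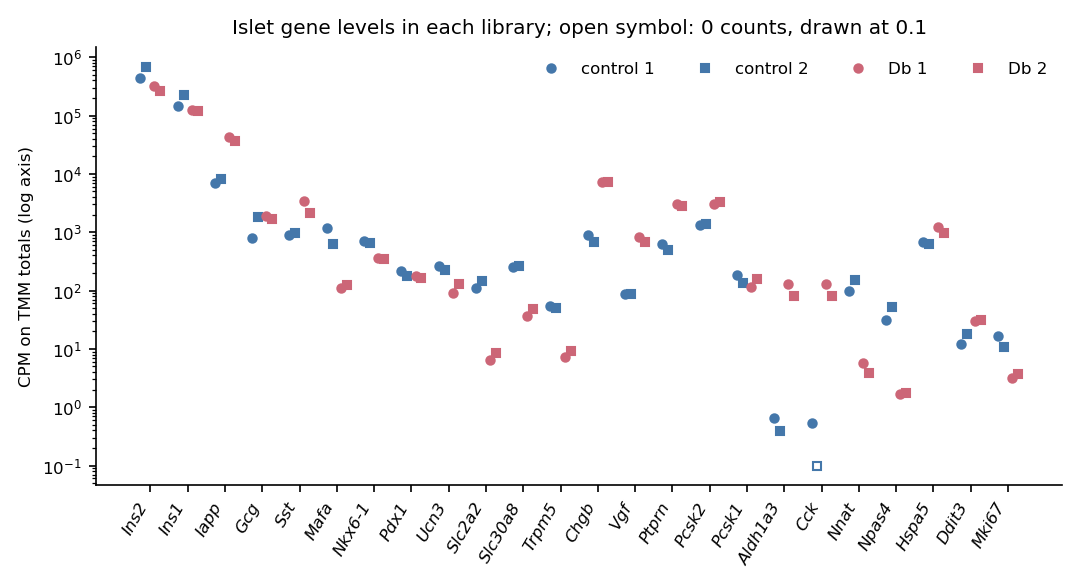
CPM on TMM totals (y axis, log scale) of 24 islet genes (x axis) in each of the 4 libraries, controls in blue and Db in red, replicate 1 as circles and replicate 2 as squares. Db points lie below the controls for Mafa, Slc2a2, Slc30a8, Trpm5, Nnat and Npas4 and above them for Iapp, Chgb, Vgf, Ptprn, Aldh1a3 and Cck. For Gcg and Pcsk1 the groups overlap.

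The secretory granule showed the opposite balance, with 13 of 21 genes of prohormone processing and granule content higher and 4 lower (10 and 3 GC-adjusted; median 0.72, which stayed above 0 with plain library totals, at 0.99, and with the insulin genes left out of them, at 0.40). Chgb, the acidic granule protein chromogranin B, rose from 887 and 679 CPM to 7223 and 7173, 9.19-fold (3.20 ± 0.26, edgeR adjusted p = 1.11e-10). Vgf, a granin that gives rise to several secreted peptides, rose from 87 and 87.2 to 821 and 668 CPM (3.10 ± 0.23, adjusted p = 2.47e-11). Ptprn, the granule membrane phosphatase-like protein IA-2 known as a diabetes autoantigen, rose from 623 and 495 to 3069 and 2871 CPM (2.41 ± 0.24). These 3 genes were similar between the replicates of each group and far apart between groups. Slc30a8, the ZnT8 transporter that loads granules with zinc for insulin crystals, fell from 249.5 and 266 CPM to 36.6 and 48.8 (-2.59 ± 0.22, adjusted p = 2.12e-10), against the direction of most of its list. The proinsulin-cleaving enzymes differed from each other. Pcsk1 (PC1/3) stood at 182 and 136 CPM in controls and 115 and 155 in Db islets, overlapping and not called (-0.23, adjusted p = 0.373; with the insulin genes left out of plain totals -0.54, adjusted p = 0.0426). Pcsk2 (PC2) rose from 1350 and 1407 to 3079 and 3297 CPM (1.21, adjusted p = 9.09e-05). Scg2, Pcsk1n and Chga were chosen after their values were seen. Scg2, secretogranin II, rose from 1757 and 1497 CPM to 4588 and 4874 (1.54). Pcsk1n, the precursor proSAAS that inhibits PC1/3, fell from 4504 and 4169 to 2011 and 1456 (-1.32). Chga, chromogranin A, was not called (15960 and 14900 CPM in controls against 20610 and 19240 in Db, 0.37, adjusted p = 0.241). On CPM without the insulin genes, Chgb read 2360 and 1746 in controls and 14980 and 15380 in Db islets, and Slc30a8 664 and 683 in controls and 75.9 and 105 in Db islets, the same directions as on TMM totals.

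Several granule genes are textbook targets of the cyclic AMP response element, to which CREB binds, so their promoters were searched for its palindrome TGACGTCA on both strands. RefSeq promoters of build GRCm38.p6, 250 bases before to 50 after each gene's start, were available for 17 of the 21 granule genes, and 3 held the motif. In the windows below, read 5′ to 3′ on the gene's strand, capitals mark it, and they are shown because the 3 genes behaved differently: Chgb and Scg2 were called higher and Pcsk1 was not called.
Pcsk1, chr13:75089759-75089806, plus strand: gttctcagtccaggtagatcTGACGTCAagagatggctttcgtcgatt
Scg2, chr1:79440067-79440114, minus strand: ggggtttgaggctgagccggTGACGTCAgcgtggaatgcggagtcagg
Chgb, chr2:132781550-132781597, plus strand: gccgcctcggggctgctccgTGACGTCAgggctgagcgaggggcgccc
The palindrome occurs in 1.79% of 32851 such promoters. Among tested genes with a promoter, it is held by 363 of 10226 (3.55%). Of the 363, 24.0% rose and 28.9% fell, against 24.3% and 23.9% of all genes. A match describes letters in a window and is not a measured site.

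Exocytosis genes were called higher for 11 of 25 and lower for 3 (7 and 5 GC-adjusted; median 0.38). Sytl4, granuphilin, a Rab effector that docks insulin granules, had the largest fall, from 130 and 129 CPM to 17.8 and 26.4 (-2.55, edgeR adjusted p = 3.8e-10). Rab3d, a granule Rab, rose by 1.63, and the calcium sensors Syt5 and Syt9 by 1.49 and 1.57. With the insulin genes left out of plain totals, 5 members were higher.

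Genes linked to immature or dedifferentiated endocrine cells moved in both directions, with 8 of 18 higher and 7 lower (7 and 6 GC-adjusted; 5 higher without Db 1), and some of the widest differences between the groups were among them. Aldh1a3, a retinaldehyde dehydrogenase known as a marker of failing β-cells in diabetic islets, had 6 and 3 counts in the controls and 2331 and 1640 in the Db libraries. Its level was 0.642 and 0.385 against 129 and 79.4 CPM, 195-fold higher (7.61 ± 0.37, edgeR adjusted p = 3.04e-14). Cck, the gut and brain peptide cholecystokinin, had 5 and 0 counts in controls and 2326 and 1690 in Db islets (8.46 ± 0.46, a value that depends on the few control counts). Gast, the stomach hormone gastrin, which fetal but not adult islets express, had 0 counts in both controls and 495 and 346 in the Db libraries, at least 124.0-fold higher if the controls are set at a floor of 3 counts over the group. These 3 transcripts were at or near 0 in both controls and plainly present in both Db libraries. Npy, neuropeptide Y, of neonatal β-cells, instead fell, from 34.1 and 11.8 CPM to 3.59 and 2.03 (-3.05 ± 0.67, adjusted p = 0.0252), with the control libraries far apart from each other and still above both Db libraries. Neurog3, the endocrine progenitor factor, chosen after its values were seen, was at 1.6 and 0.769 CPM in controls and 5.08 and 2.52 in Db (1.63, adjusted p = 0.0039). Its call was lost without Db 1 (1.07, adjusted p = 0.143).

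Disallowed genes, which are kept low in β-cells in most accounts, gave 5 higher and 4 lower of 17 (3 and 4 GC-adjusted), close to all genes; 3 were higher without Db 1, without Db 2 or without control 2. Zyx, a focal adhesion protein, and Fcgrt, the neonatal Fc receptor, rose by 1.33 and 1.06. Mgst1, a glutathione transferase, and Lmo4, a LIM-only cofactor, fell (-2.59 and -1.61). Ldha, lactate dehydrogenase A, the best known of the list, read 10.1 and 6.03 CPM in controls and 5.63 and 7.07 in Db and was not called (-0.35, edgeR adjusted p = 0.324). Slc16a1, the lactate and pyruvate carrier MCT1, had 4 and 5 counts in controls and 4 and 1 in Db libraries, too few to test.

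Beyond these, the genes with the largest rises at 10 CPM or more included a bile acid receptor, secreted proteins and an acinar enzyme. Gpbar1, the G protein-coupled bile acid receptor, had 0 and 1 counts in controls and 13.1 and 13.3 CPM in Db libraries, a ratio of 226.1 with a 95% counting interval of 40.4 to 8947. C1qtnf1, a secreted relative of adiponectin, rose from 3.1 and 2.31 CPM to 219 and 266 (6.47 ± 0.28, edgeR adjusted p = 2.76e-16). Mt3, a metal-binding metallothionein, rose from 1.71 and 0.897 to 48.9 and 36.8 CPM (31.9-fold). None of these had overlapping groups. Ctrb1, the digestive enzyme precursor chymotrypsinogen B, was at 2.46 and 2.82 CPM in controls and 196 and 79.9 in Db (5.71 ± 0.60, adjusted p = 0.00104). Rises of 4.23 to 4.68 were found for Mapk4, an atypical MAP kinase, Zcchc12, Gsdma of the pore-forming gasdermins, Fam167a, the secreted protein Cthrc1, Serpina7, the thyroxine-binding globulin, Krtap17-1 and Cgref1. On the falling side stood Kcnj12, an inward rectifier potassium channel, at 30.9 and 17.8 CPM in controls and 0.607 and 1.26 in Db (-4.68), and Npas4, a transcription factor induced by calcium entry, at 30.8 and 52.3 CPM in controls and 1.66 and 1.74 in Db (-4.60). Cox6a2, the tissue-restricted subunit of cytochrome oxidase, fell from 123 and 149.7 to 8.95 and 14.8 CPM (-3.52). Gad1, which makes the transmitter GABA, fell from 47.4 and 58.5 to 3.98 and 7.02 CPM (-3.26). In each of these 4 the Db libraries lay well below the controls. Nrtn, the growth factor neurturin, changed by -3.07, and by -1.58 GC-adjusted. Defb1, a defensin, Itgad, an integrin subunit, Ybx2, Ly6a, Olfm4, Btnl9 and Epb41l4a fell as well, with log2 changes between -4.11 and -3.01.

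Genes of the endoplasmic reticulum (ER), where proinsulin folds, were mostly higher or not called. Of 28 chaperones and unfolded protein sensors, 14 rose and 1 fell (16 and 3 GC-adjusted; median 0.50). Of 25 genes of ER-associated degradation, which removes misfolded proteins, 13 rose and 2 fell (10 and 1; median 0.56). Of 54 genes of ER translocation and vesicle coats, 23 rose and 6 fell (24 and 1; median 0.34). Their medians were above 0 under each scaling, from 0.03 to 0.87, against -0.36 and 0.29 for all genes under the same scalings. Hspa5, the abundant ER chaperone BiP, stood at 677 and 618 CPM in controls and 1246 and 987 in Db islets (0.79 ± 0.22, edgeR adjusted p = 0.00455), without overlap. Its call was lost without Db 1 (0.63, adjusted p = 0.119) and with the insulin genes left out of plain totals (0.47, adjusted p = 0.0903). Larger rises came from Fkbp11, a proline isomerase of secretory cells, at 52.6 and 45.6 CPM in controls and 232 and 233 in Db (2.24), and Pdia6, a disulfide isomerase, at 248 and 199 against 655 and 704 (1.60). Creld2, a secreted ER stress protein, rose from 93.2 and 81.9 to 305 and 341 CPM (1.88). Derl3, a stress-induced derlin of the degradation channel, rose from 17.3 and 25.6 to 109 and 133 CPM (2.50), and the degradation factor Os9 rose by 1.58. Vcp, the ATPase that extracts substrates, fell by 1.03 on the log2 scale, a call lost with plain library totals (-0.74, adjusted p = 0.0727). Among translocation and trafficking genes Sec13 of the COPII coat rose by 2.07, Kdelr3, a retrieval receptor, by 1.96, Srprb of the signal recognition particle receptor by 1.73, and Sec61a1, the channel itself, by 1.52.

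The ER stress response element (ERSE), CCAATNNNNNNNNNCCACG, through which ATF6 and XBP1 act, was searched on both strands of the same RefSeq promoters. It occurs in 39 of 32851 promoters (0.119%) and in 9 of the 82 ER genes with a promoter, of 106 tested in the ER lists. Of those 9, 6 were called higher, none lower and 3 were not called. Beside this stand 24.3% higher and 23.9% lower over all genes tested, and 42.6 to 52.0% higher in the 3 ER lists. The 9 are shown so that the called and uncalled genes can be set side by side. Windows are read 5′ to 3′ on the gene's strand, with the element in capitals. A match on the opposite strand shows as CGTGG at its start and ATTGG at its end. Hsp90b1 holds a second copy outside its window.
Hspa5, chr2:34772005-34772063, plus strand: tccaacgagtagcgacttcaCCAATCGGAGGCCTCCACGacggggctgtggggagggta
Hsp90b1, chr10:86705618-86705676, minus strand: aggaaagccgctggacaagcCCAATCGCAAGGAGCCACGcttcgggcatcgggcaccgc
Calr, chr8:84847055-84847113, minus strand: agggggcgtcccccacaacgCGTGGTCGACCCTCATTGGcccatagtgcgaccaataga
Canx, chr11:50325780-50325838, minus strand: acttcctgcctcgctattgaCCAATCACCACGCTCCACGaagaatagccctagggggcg
Pdia6, chr12:17266471-17266529, plus strand: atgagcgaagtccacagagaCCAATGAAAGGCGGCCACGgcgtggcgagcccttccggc
Dnajc3, chr14:118937807-118937865, plus strand: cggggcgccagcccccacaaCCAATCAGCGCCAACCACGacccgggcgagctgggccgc
Creld2, chr15:88819500-88819558, plus strand: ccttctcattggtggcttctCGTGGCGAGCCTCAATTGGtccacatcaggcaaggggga
Derl3, chr10:75893222-75893280, plus strand: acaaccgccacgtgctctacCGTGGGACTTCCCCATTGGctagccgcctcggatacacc
Syvn1, chr19:6046512-6046570, plus strand: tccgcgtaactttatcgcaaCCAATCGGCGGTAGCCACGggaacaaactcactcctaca
Calr, Syvn1, Hsp90b1, Canx and Dnajc3 were chosen for this match after their values were seen. Calr, the lectin chaperone calreticulin, stood at 518 and 440.3 CPM in controls and 722 and 837 in Db (0.70, edgeR adjusted p = 0.00873), a call lost without Db 2 (0.61, adjusted p = 0.143). Syvn1, the degradation ligase HRD1, was at 81.1 and 148 CPM in controls and 203 and 202 in Db (0.83, adjusted p = 0.00545) and lost its call GC-adjusted (0.34, adjusted p = 0.281). With the insulin genes left out of plain totals both calls were lost (0.39, adjusted p = 0.153, and 0.52, adjusted p = 0.0643). Hsp90b1 (GRP94) and Canx (calnexin), with the same element, were not called (-0.41, adjusted p = 0.105, and -0.39, adjusted p = 0.108) and were called lower with the insulin genes left out of plain totals (-0.72, adjusted p = 0.00703, and -0.70, adjusted p = 0.0064). Hsp90b1 was also called lower without control 2. Dnajc3 was not called (0.48, adjusted p = 0.0501) and was called higher in 8 of the 17 alternatives, among them DESeq2 (0.50, adjusted p = 0.0489), the fit without control 2 (0.58, adjusted p = 0.0145) and GC-adjusted (1.00, adjusted p = 0.000312). Over all 10226 tested genes with a promoter, 17 (0.166%) held the element, of which 7 (41.2%) were higher, 2 (11.8%) lower and 8 not called. These 17 include the 9 ER genes, so most of the higher calls are those shown above and both lower calls lie outside the ER lists.

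ATF4 and amino acid response genes, the transcriptional output of the integrated stress response, were higher for 18 of 26 and lower for 3 (14 and 1 GC-adjusted), with a median of 0.97 that remained positive under the other scalings (0.65 and 1.25). Atf4 itself, which is controlled in large part by translation, read 129 and 186 CPM in controls and 205 and 198 in Db and was not called (0.36, edgeR adjusted p = 0.161), although without control 2 it was (0.68, adjusted p = 0.00414). Ddit3, the stress factor CHOP, rose from 12.1 and 18.1 to 30.2 and 31.4 CPM (1.04, adjusted p = 0.00048). Ppp1r15a, the GADD34 phosphatase subunit that restores translation, rose from 21.8 and 35.2 to 104 and 94.7 CPM (1.81). The Db libraries lay above the controls for Ddit3 and Ppp1r15a and were close to the higher control for Atf4. Stc2, the secreted glycoprotein stanniocalcin 2, went from 0.321 and 0.128 CPM to 6.07 and 4.41 (4.44), a change that rests on few control counts. Phgdh, the first enzyme of serine synthesis, rose by 2.45, and Nupr1, Eif4ebp1, Trib3 and Sesn2 by 1.97, 1.68, 1.52 and 1.28. Aminoacyl-tRNA synthetases gave 10 higher and 3 lower of 20 (5 and 2 GC-adjusted), with Hars and Tars up by 1.51 and 1.07 and Farsb at -1.45; without Db 2, 5 were higher.

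**Figure D4:**
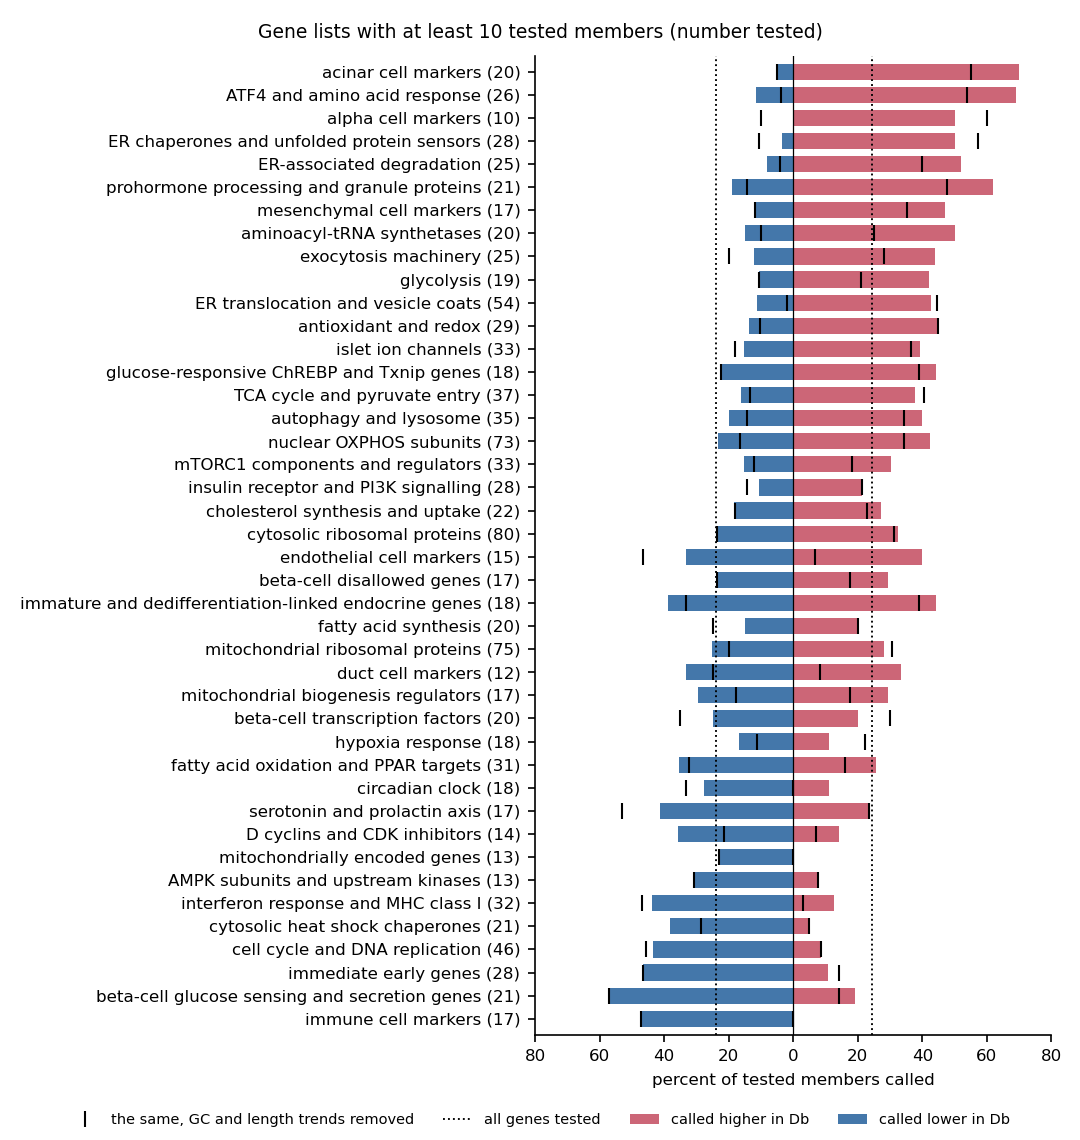
For each gene list with at least 10 tested members (rows, number tested in brackets), red bars give the percent of members called higher and blue bars the percent called lower in Db islets; black ticks give the same GC-adjusted and dotted lines the 24.3% and 23.9% of all genes tested. Acinar, ATF4 and granule genes extend farthest to the right, and glucose sensing, immune, immediate early, interferon and cell cycle genes to the left.

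The study's title names mTORC1 and AMPK, the kinase complexes that promote growth when nutrients abound and energy production when they are scarce. Transcript levels do not measure kinase activity. Of 13 AMPK subunits and upstream kinases, 1 was higher and 4 lower (1 and 4 GC-adjusted, with 1 lower call shared; median -0.44), and 2 were lower without Db 1, without Db 2 or without control 2. Prkaa1, the α1 catalytic subunit, stood at 18.3 and 19.5 CPM in controls and 11.2 and 8.23 in Db (-0.96, edgeR adjusted p = 0.00147), a call lost without Db 2 (-0.74, adjusted p = 0.0615), with plain library totals (-0.65, adjusted p = 0.105) and GC-adjusted (-0.23, adjusted p = 0.404). Prkaa2, the α2 subunit, was not called (-0.48, adjusted p = 0.382). Strada, a partner of the upstream kinase LKB1 (0.82), and the upstream kinase Camkk1 (-0.80) kept their calls in 13 of 17 and 10 of 16 alternatives. Strada lost its call without Db 2 (adjusted p = 0.173) and Camkk1 without Db 1, Db 2 or control 1 (adjusted p = 0.152, 0.104 and 0.158). The β2 subunit Prkab2, named after its values were seen (-0.82), kept its call in 8 of 16, and lost it without Db 1, Db 2 or control 2 (adjusted p = 0.075, 0.245 and 0.128) and GC-adjusted (-0.60, adjusted p = 0.12). Of 33 mTORC1 components and regulators, 10 were higher and 5 lower (6 and 4 GC-adjusted), and the median of 0.09 turned to -0.23 with the insulin genes left out of plain totals. Either way, 45.5% of this list and 38.5% of the AMPK list were called, fewer than the 48.2% of all genes tested. Mtor was at 13.4 and 17.9 CPM in controls and 23.2 and 30.4 in Db (0.78, adjusted p = 0.00611), but the call was lost without Db 2 (0.59, adjusted p = 0.118), with the insulin genes left out of plain totals (0.47, adjusted p = 0.0863) and GC-adjusted (0.21, adjusted p = 0.457). Tsc1, which restrains mTORC1, was at 20.5 and 13.1 CPM in controls and 15.8 and 20.5 in Db, overlapping (0.10, adjusted p = 0.74). Lamtor2 of the lysosomal Ragulator complex rose by 2.46 and Rptor, the raptor subunit, by 1.17. Eif4e, the cap-binding translation factor, and Sesn1, a sestrin that restrains mTORC1, fell (-1.18 and -1.30; named after their values were seen), the former losing its call without Db 2 (-0.76, adjusted p = 0.0786) and GC-adjusted (-0.50, adjusted p = 0.122). Fnip1, a folliculin partner, fell (-1.26), a call lost without control 2 (-0.70, adjusted p = 0.0705) and GC-adjusted (-0.46, adjusted p = 0.196). Cytosolic ribosomal protein genes, whose mRNAs are translated under mTORC1 control, split into 26 higher and 19 lower of 80 (25 and 19 GC-adjusted). These shares were 32.5% and 23.8%, beside 24.3% and 23.9% of all genes tested. The median of these ribosomal genes, 0.23, turned to -0.08 with the insulin genes left out of plain totals. They ranged from -2.39 to 2.70, with Rpl19 at 2.70, Rps14 at 2.37 and Rps24 at -2.31; reads of their many processed copies make single members uncertain.

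In the glycolysis, TCA and nuclear OXPHOS lists more genes were called higher than lower. Glycolysis genes were higher for 8 of 19 and lower for 2 (4 and 2 GC-adjusted), with Aldoa (aldolase A) and Gpi1 up by 1.47 and 1.19, and Pfkfb2, which makes an activator of glycolysis, down (-1.98). Of 37 genes of the TCA cycle and pyruvate entry, 14 were higher and 6 lower (15 and 5 GC-adjusted), among them Mdh2 at 1.18, Sdhc at 1.09 and Sdhb at 1.04, although the median of all 37 was -0.04 (0.28 with plain library totals). Without Db 2, 4 glycolysis and 8 TCA genes were higher. Nuclear subunits of oxidative phosphorylation gave 31 higher and 17 lower of 73 (25 and 12 GC-adjusted; median 0.38), with rises of Ndufa1, Uqcrq and Ndufa7 (2.44, 1.70 and 1.60); without Db 2, 20 were higher. Mitochondrial ribosomal proteins were split, 21 higher and 19 lower of 75 (23 and 15 GC-adjusted). These shares were 28.0% and 25.3%, beside 24.3% and 23.9% of all genes tested. Mitochondrially encoded genes had a median of -1.44 (-0.44 GC-adjusted). Of these 13 genes, 3 (23.1%, beside 23.9% of all genes tested) were called lower and none higher (3 and none GC-adjusted). Their summed level was 2489 and 7332 CPM in controls and 2346 and 1305 in Db islets, so control 2 stood apart and control 1 was close to Db 1. Without control 1 all 13 tested members were called lower, and without Db 1 or Db 2, 6 were. The mitochondrial rRNAs mt-Rnr1 and mt-Rnr2 changed by -2.11 and -1.94, and mt-Co1 was at 1314 and 2787 CPM in controls and 884 and 506 in Db (-1.56), a call lost GC-adjusted (-0.67, adjusted p = 0.0707) and with limma-voom (-1.52, adjusted p = 0.0855).

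Glucose-responsive genes of the ChREBP factor and Txnip were higher for 8 of 18 and lower for 4 (7 and 4 GC-adjusted). Txnip, the thioredoxin inhibitor that glucose induces in β-cells, rose from 72 and 119 CPM to 248 and 321 (1.58, edgeR adjusted p = 6.11e-06). Tkfc, Gpd1 and G6pc3 rose by 2.29, 1.73 and 1.69, and Rgs16, a brake on G protein signalling, by 1.41. Mlxipl, which encodes ChREBP, was lower (226 and 262 CPM against 108 and 157, -0.88, adjusted p = 0.00141), a call lost without Db 1 (-0.61, adjusted p = 0.118) and with plain library totals (-0.54, adjusted p = 0.22). Both Db libraries lay above the controls for Txnip and below them for Mlxipl. Lipid lists held calls in both directions: fatty acid synthesis 4 higher and 3 lower of 20 (4 and 5 GC-adjusted), fatty acid oxidation 8 and 11 of 31 (5 and 10), cholesterol 6 and 4 of 22 (5 and 4). In these lists 35.0, 61.3 and 45.5% were called, beside 48.2% of all genes tested. Within them Fasn, fatty acid synthase, rose from 68 and 66.4 CPM to 163 and 184 (1.37), and Elovl1, a fatty acid elongase, by 1.18. Ucp2, the uncoupling protein of islets, Etfb and Pmvk rose by 1.67, 1.54 and 1.72. Fabp4, a fatty acid binding protein, and Msmo1, a sterol oxidase, fell (-1.87 and -1.46).

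Proliferation genes that passed the test were mostly lower. Of 46 cell cycle and DNA replication genes, 20 were lower and 4 higher (21 and 4 GC-adjusted; median -0.51, and -0.18 and -0.82 under the plain totals with and without insulin). Mki67, the proliferation marker Ki-67, went from 16.6 and 10.8 CPM to 3.2 and 3.68 (-1.99, edgeR adjusted p = 2.02e-06), and Top2a, the topoisomerase of dividing cells, from 22 and 14.7 to 2.21 and 2.37 (8.02-fold lower). Cenpf and Ccna2 (cyclin A2) fell by 2.60 and 2.07 on the log2 scale. Both Db libraries lay below both controls for Mki67 and Top2a. Among the 4 that rose, named after their values were seen, were the replication genes Mcm2 and Rrm2 (1.23 and 1.20) and the maintenance DNA methyltransferase Dnmt1 (1.14). Of 14 D cyclins and CDK inhibitors, 5 fell and 2 rose (3 and 1 GC-adjusted; 3 lower without Db 1), with Cdkn1c (p57) and Cdkn2c (p18) at -2.32 and -1.72 and Men1, the menin tumour suppressor that restrains islet growth, at 1.47. In the serotonin and prolactin list, 7 of 17 fell and 4 rose (9 and 4 GC-adjusted). Prlr, the prolactin receptor, fell from 68.3 and 78.5 CPM to 28.5 and 19.6 (-1.61) and Maob, a monoamine oxidase, by 1.99 on the log2 scale. Tph1, the serotonin synthesis enzyme of pregnant islets, had 0 counts in all 4 libraries, which allows up to 0.145 to 0.385 CPM per library at 3 counts, for counting error only.

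Immediate early genes, transcription factors that switch on within minutes of depolarisation, growth factors or tissue handling, fell in 13 of 28 and rose in 3 (13 and 4 GC-adjusted; median -0.89). Npas4, given above, led them, with Klf2 and Jund at -1.63 and -1.63. Ier2 went from 155 and 231 CPM to 51.1 and 38.1 (-2.11). Without control 1, 20 members were called lower. Of 21 cytosolic heat shock chaperones, 8 fell and 1 rose (6 and 1 GC-adjusted; median -0.61). Hspa1a, the inducible Hsp70, went from 244 and 348 CPM to 60.2 and 44.5 (-2.50, edgeR adjusted p = 1.86e-09). Its near-identical copy Hspa1b was at -2.27, so reads may be split between them, and Hsp90aa1 was at -1.68. Bag3, a co-chaperone of Hsp70, was the member that rose (2.04). Handling of the tissue before RNA extraction is not described per group in the labels, and its part in these lists was not tested.

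Interferon response and MHC class I genes fell in 14 of 32 and rose in 4 (15 and 1 GC-adjusted; median -0.56); without Db 1, 8 were lower and without control 1, 9. B2m, the light chain of MHC class I, went from 29.9 and 35.2 CPM to 6.24 and 5.42 (-2.48, edgeR adjusted p = 1.87e-09), with no overlap. The interferon-induced Xaf1 and Rsad2 (viperin) were at -2.59 and -2.51, and Tap2, a peptide transporter, rose by 1.17. The class I heavy chains H2-K1 and H2-D1, named after their values were seen, moved against B2m: H2-K1 stood at 83.1 and 113 CPM in controls and 187 and 166 in Db (0.85, adjusted p = 0.00139) and H2-D1 at 183 and 229 and 405 and 353 (0.88, adjusted p = 0.00117). Both calls were lost GC-adjusted (0.45, adjusted p = 0.0857, and 0.47, adjusted p = 0.0687), and reads may be split between these similar genes. Immune cell markers fell in 8 of 17 and none rose (8 lower GC-adjusted, 5 without Db 1; median -0.68). Among them were C1qc, a complement gene of macrophages, at -1.43, and the MHC class II genes H2-Aa and H2-Ab1 at -1.36 and -1.16. The summed level of the 23 matched immune markers was 358 and 323 CPM in controls and 252 and 242 in Db islets. The T-cell marker Cd3d was at 0 throughout, and the part of immune cell content in the interferon list was not tested.

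Markers of other cell types were also among the genes called. Acinar markers were higher for 14 of 20 and lower for 1 (11 and 1 GC-adjusted; median 1.96), with Ctrb1 as above, Try5, a trypsinogen, at 4.49 and Prss1, chosen after its values were seen, at 0 counts in both controls and 115 and 45 in Db libraries, at least 23.6-fold higher by the floor of 3 counts over the group. Their summed level was 88.3 and 85.2 CPM over 32 matched markers in controls and 448 and 264 in Db islets, at most 0.048% of gene counts. Near-identical trypsinogens may share reads, and Reg2 was at 0 throughout. Duct markers were split, 4 higher and 4 lower of 12 (1 and 3 GC-adjusted; 2 higher without Db 2), with summed levels of 597 and 580.1 CPM in controls and 1156 and 1154 in Db islets. Krt7, a duct keratin, rose from 199.9 and 188 to 680 and 638 CPM (1.76), which makes up most of the rise in the summed level. Tspan8 and Spp1 of the same list fell (-2.02 and -0.83). Endothelial markers were split, 6 higher and 5 lower of 15 (1 and 7 GC-adjusted; 2 higher without Db 2 and 3 without control 1), and their median of -0.17 turned to 0.15 with plain library totals. Emcn and Flt1 fell (-2.82 and -1.17) while Cldn5 rose (2.45), and the summed level was 1081 and 1041 CPM in controls and 856 and 888 in Db. Mesenchymal markers gave 8 higher and 2 lower of 17 (6 and 2 GC-adjusted), with summed levels of 539 and 661 CPM in controls and 858 and 866 in Db islets. Fn1 (fibronectin), Tagln and Col1a2 rose by 2.23, 1.61 and 1.44, and Rgs5 of pericytes was at -1.17. Haemoglobin genes were higher (Hba-a1 2.13, Hbb-bs 1.55), from summed erythroid levels of 18.2 and 10.4 CPM to 38.7 and 59.5. Adipocyte markers summed to 55 and 36 CPM in controls and 8.72 and 6.73 in Db islets, mostly from Lpl (-2.76) and Fabp4, while Adipoq, Plin1, Lep, Cfd and Retn were at 0 in every library. Stomach mucosa markers summed to 7.06 and 6.92 CPM in controls and 1.22 and 2.18 in Db islets, mostly from Atp4a (-2.06), with Gkn1, Gkn2, Tff1, Muc5ac and Gif at 0 in all 4 libraries that held Gast only in the Db group. Neural markers summed to 20.9 and 17.4 CPM in controls and 18.6 and 20.4 in Db islets. The part of these cells in the results on islet genes was not tested. Leaving the acinar markers and insulin genes out gave 3579 higher and 3503 lower of 14596. With only the insulin genes left out these were 3581 and 3502 of 14616. Dropping marker genes does not take RNA of acinar cells out of the other genes, so these counts cannot decide the question.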

How the data were processed

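Per the labels' protocols, Trizol was used on the isolated islets and sequencing libraries came from the SMARTer Stranded kit. The deposited table holds raw counts per gene for the 4 libraries; the submitters' processing notes name cutadapt 1.13, GSNAP, HTSeq 0.7.1, DESeq2 1.16.0 and the builds NCBIM37 and mm9 with no role. No source used here gives the strand setting of the counting, so overlapping and antisense genes, and near-identical copies (Ins1 and Ins2, Hspa1a and Hspa1b, trypsinogens, haemoglobins, ribosomal proteins), are uncertain. Rows that name no gene held 64.9, 58.24, 56.37 and 55.73% of the reads (control 1, control 2, Db 1, Db 2) and were left out of library sizes. Symbols came from GENCODE M21 (GRCm38), another build, for 32620 of 37310 gene IDs (87.4%), as did transcript GC content and length (96.4% of tested genes); no coordinates were taken from it. Kcnj11, Hmgcs1 and other list symbols without a match are not analysed here.

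Genes were kept by edgeR's filterByExpr (minimum count 10, minimum total 15) and tested with edgeR 4.0.16 (R 4.3.3, limma 3.58.1; glmQLFit with robust estimation, TMM scaling, 2 residual degrees of freedom, common biological coefficient of variation 0.162), adjusted over all 14369 genes with a threshold of 0.05. The median prior degrees of freedom were 27.53, so the variance of most genes was largely borrowed from the trend over all genes. Replicate libraries differed beyond sampling noise (chi-square per degree of freedom 23.85 for controls and 14.08 for Db, Spearman's rho 0.968 and 0.986 across genes). Each library was treated as 1 sample, although such differences do not show that the libraries came from separate animals. The 95% Wilson interval of a share of gene counts was at most 0.035 percentage points to either side, for counting error only. The test was checked on simulated counts in which far fewer genes changed than were called here, so the check does not cover a change this wide. The 48 gene lists (37 of function, 11 of cell markers; 1272 of 1283 entries matched) and the comparison were chosen with earlier results of these data known. Named genes are the 15 largest changes in each direction among called genes without overlap and with a mean of 10 CPM or more in the higher group, the 4 members of each list with the smallest p, and fixed anchors such as Ins1, Pdx1 and Tsc1, some of which are not reported here; others are said to be chosen after their values were seen. Alternatives were plain library totals, leaving out Ins1 and Ins2 (with mitochondrial or acinar genes, or with plain totals), upper-quartile scaling, DESeq2 1.42.0, limma-voom, other filters, no robust estimation, a replicate block, leaving out each library, and removal of GC and length trends.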

Additional observations from a re-analysis of the deposited data

How the results depend on the processing

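Depth limits genes with few counts, and Db libraries are deeper, so low genes are measured less precisely in controls. Of 196 tested genes named in the text, 182 were called and 161 of these kept their call in every alternative run, and none reversed. Most of them were named for large changes or small p in these same data, which favours stable calls. Over all genes, 2871 of the 6919 calls were kept in every alternative that tested the gene. With the insulin genes left out of plain library totals, 2186 genes were higher and 5305 lower. Members called higher were then 8 granule, 5 exocytosis, 2 disallowed, 4 glycolysis, 9 TCA, 16 OXPHOS, 4 tRNA synthetase, 8 ER degradation, 9 lysosome, 1 biogenesis, 1 leptin pathway, 3 α-cell, 2 duct and 2 endothelial genes, and members called lower were 9 transcription factors, 8 AMPK, 13 heat shock, 11 serotonin and prolactin and 6 hypoxia genes. With plain library totals, 1564 genes were lower, among them 1 transcription factor, 9 mitochondrially encoded, 1 AMPK, 5 heat shock, 7 fatty acid oxidation, 3 D cyclin and inhibitor, 3 serotonin and prolactin, 1 hypoxia, 8 interferon, 3 clock, 1 δ and PP and 1 neural. These shifts follow from how the totals were built. With upper-quartile scaling (2866 higher, 4146 lower, median -0.16), 8 transcription factors and 8 AMPK genes were lower, and 3 biogenesis, 1 leptin pathway, 2 duct and 3 endothelial genes higher. With at least 5 CPM in at least 2 libraries, which tests fewer genes, 8 transcription factors, 6 fatty acid oxidation, 11 cell cycle, 5 interferon, 5 immune and 0 neural genes were lower, and 2 biogenesis, 1 leptin pathway and 9 acinar genes higher. GC-adjusted, 7 exocytosis, 3 disallowed, 4 glycolysis, 6 mTORC1, 5 tRNA synthetase, 3 biogenesis, 1 leptin pathway, 1 duct and 1 endothelial gene were higher and 3 D cyclins and inhibitors lower. Without robust estimation, 11 mitochondrially encoded genes were lower. DESeq2 (2808 higher, 2428 lower) called 2 AMPK genes lower, 2 biogenesis genes higher and 1 neural gene lower, and 1 neural gene was lower with no low-count filter. The cause of the shifts other than those of scaling and of the filter was not tested.

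Leaving out 1 library at a time, genes called lower ranged from 1952 to 3156 and genes called higher from 2467 to 3510. Members called higher ranged from 5 to 9 for immature, 3 to 6 for disallowed, 4 to 9 for glycolysis, 8 to 13 for TCA, 20 to 33 for OXPHOS, 5 to 11 for tRNA synthetases, 2 to 4 for biogenesis, 1 to 3 for leptin pathway, 3 to 7 for α-cell, 2 to 5 for duct and 2 to 6 for endothelial genes. Members called lower ranged from 3 to 6 for transcription factors, 4 to 13 for mitochondrially encoded, 2 to 4 for AMPK, 3 to 6 for D cyclin, 12 to 20 for immediate early, 1 to 3 for hypoxia, 8 to 11 for interferon, 5 to 9 for immune and 0 to 2 for neural genes. A group left with 1 library is assumed to vary like the other. Over all reads, rows that name no gene included, insulin took 21.43 and 29.25% in controls and 21.09 and 20.16% in Db libraries, mitochondrially encoded genes 0.09057, 0.2361, 0.1097 and 0.06746%, and acinar markers 0.003214, 0.002745, 0.02094 and 0.01365%.

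With the replicate number as a block, 3369 genes were higher and 3245 lower. Across genes, the difference between the control replicates did not follow that between the Db replicates (correlation -0.035). With 2 libraries a group there is a single such difference per group, so this cannot decide whether the numbers pair the libraries. Under the block Ins2 (-0.90, adjusted p = 0.0503) and Prkab2 (-0.82, adjusted p = 0.0523) were not called and Gcg was called higher (0.60, adjusted p = 0.0311).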

Other observations

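Islet ion channels, which turn glucose metabolism into calcium entry, were called higher for 13 of 33 and lower for 5 in Db islets (12 and 6 GC-adjusted). Their median of 0.28 turned to -0.07 with the insulin genes left out of plain totals. Kcnk16, the islet background potassium channel TALK-1, rose from 46.4 and 46.1 CPM in controls to 219 and 227 in Db islets (2.27, edgeR adjusted p = 1.16e-09). Atp2a2, the calcium pump of the ER, fell (-1.47). Antioxidant genes were higher for 13 of 29 and lower for 4 (13 and 3 GC-adjusted). Hmox1, haem oxygenase, Prdx4, the ER peroxiredoxin, and Txn2, mitochondrial thioredoxin, rose by 3.28, 2.06 and 1.32, while Nqo1, a quinone reductase, fell (-3.58). Hmox1 and Nqo1 are both known targets of NRF2 and moved in opposite directions. Autophagy and lysosome genes gave 14 higher and 7 lower of 35 (12 and 5 GC-adjusted), with Wipi1, an early autophagy protein, and Ctsd, cathepsin D, up by 2.42 and 1.66.

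Insulin receptor and PI3K signalling genes gave 6 higher and 3 lower of 28 (6 and 4 GC-adjusted), with Irs2, the receptor substrate that supports β-cell survival, up by 2.30 and Igf2r and the phosphatase Ptpn1 up by 1.44 and 1.68. Of 6 tested genes downstream of the leptin receptor, 2 were higher and 2 lower (1 and 2 GC-adjusted; 1 higher without Db 1 or without Db 2), with Jak2, its kinase, at -1.21 and Stat3 at 0.51 (adjusted p = 0.0348). The Stat3 call was lost without Db 1 (0.63, adjusted p = 0.0671), without Db 2 (0.42, adjusted p = 0.265) and GC-adjusted (0.04, adjusted p = 0.87). Clock genes fell in 5 of 18 and rose in 2 (6 and 0 GC-adjusted), Dbp, a direct clock target, by 1.68 on the log2 scale; at what hour islets were isolated is not stated in the labels. Hypoxia genes gave 2 higher and 3 lower of 18 (4 and 2 GC-adjusted; 1 lower without Db 2), with P4ha2, a collagen hydroxylase, up by 2.23. Of the PI3K, clock and hypoxia lists 32.1, 38.9 and 27.8% were called, fewer than the 48.2% of all genes tested. Mitochondrial biogenesis regulators gave 5 higher and 5 lower of 17 (3 and 3 GC-adjusted; 2 higher without Db 1 or without Db 2), and Ppargc1a had 1 and 2 counts in controls and 3 and 3 in Db libraries, too few to test.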
